A study of Mus musculus with 8 samples.

Results

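The genes described here set the level of hexose phosphates in muscle: the bifunctional enzymes Pfkfb1, Pfkfb2, Pfkfb3 and Pfkfb4, the muscle fructose bisphosphatase Fbp2, the muscle phosphofructokinase Pfkm, and the hexokinases Hk1 and Hk2. They were taken by gene symbol from the array's annotation, using probe sets listed with a single symbol and, where a gene had several, the brightest on average across the 8 arrays. Of these 8 genes 7 were found, out of 14860 genes with such a probe set in all, and each of the 7 had a single probe set, so the brightness rule decided nothing. Pfkfb1 had no single-symbol probe set in the annotation used here and was not analysed. Pfkfb3, Fbp2 and Hk2 were chosen on earlier results of these same arrays, in which their log2 fold changes between the groups had stood out as negative. Those differences are therefore given as a description without a p-value.

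RNA came from the tibialis anterior, a mostly fast-fibred muscle of the lower leg, of 8-week-old male ATF4 mKO mice, in which the stress-responsive transcription factor ATF4 is deleted in muscle. Both groups carry that deletion, and other cell types of the muscle are not covered by it. Left muscles of the control group (4 arrays) were given pcDNA3, a plasmid without an insert. Right muscles of the Gadd45a group (4 arrays) were given pCMV-FLAG-Gadd45a, which makes tagged Gadd45a, a small nuclear stress protein. Muscles were collected on day 7 after transfection. Plasmid and body side cannot be told apart, nor can Gadd45a and the making of any tagged protein. No label says which mouse an array came from, so p-values measure only the spread between these arrays, and the number of arrays limits the precision.

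Glucose that enters a fibre is trapped as glucose phosphate by a hexokinase, and phosphofructokinase then commits fructose phosphate to glycolysis. Fructose bisphosphatase runs that committed step backwards. The Pfkfb enzymes make and break a small sugar bisphosphate that activates phosphofructokinase and inhibits fructose bisphosphatase. The family members differ in their balance of kinase and phosphatase activity and in where they are made. Hk2 is the insulin-responsive hexokinase of muscle, and Hk1 is the more widely made form.

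Gadd45a, the transfected gene, read 7.76 ± 0.08 log2 units (SD, n = 4) on control arrays and 10.33 ± 0.12 (SD, n = 4) on Gadd45a arrays, by a probe set that does not separate plasmid from native RNA. Markers of fast fibres were among the brightest probe sets, with 99.9% of probe sets dimmer than the parvalbumin gene Pvalb and 98.9% dimmer than the muscle creatine kinase gene Ckm. The fast myosin genes Myh1, Myh2 and Myh4 were not analysed. Array medians ran from 5.85 to 5.92. Pairs of arrays correlated at 0.979 or more inside either group, and at 0.963 to 0.975 across groups.

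With Gadd45a plasmid, RNA of Pfkm was lower, while Pfkfb2, Pfkfb4 and Hk1 did not pass the test. RNA of Pfkfb3, Fbp2 and Hk2 was also lower, which is a description only, since they were chosen with that decrease known. At an adjusted p under 0.05 (limma, Benjamini-Hochberg over all 16755 probe sets), 4 of the 7 measured genes were lower and 0 higher. At an unadjusted limma p under 0.05 these counts were 5 and 0. Over all probe sets 21.1% passed in either direction, 10.3% lower and 10.8% higher. With probe sets below the median brightness left out, 39.2% of 8378 passed, 1418 lower and 1868 higher. In that fit 6 of the 7 genes were tested and 4 were lower. The same 4 genes had groups that did not overlap, which held for 26.9% of all probe sets, 13.8% in the lower direction. The median log2 fold change, taken as Gadd45a arrays minus control arrays, was -0.77 over the 7 genes and -0.06 over all probe sets. Since 3 of the genes were known to be lower when the set was chosen, nothing is read from these counts.

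**Figure D1:**
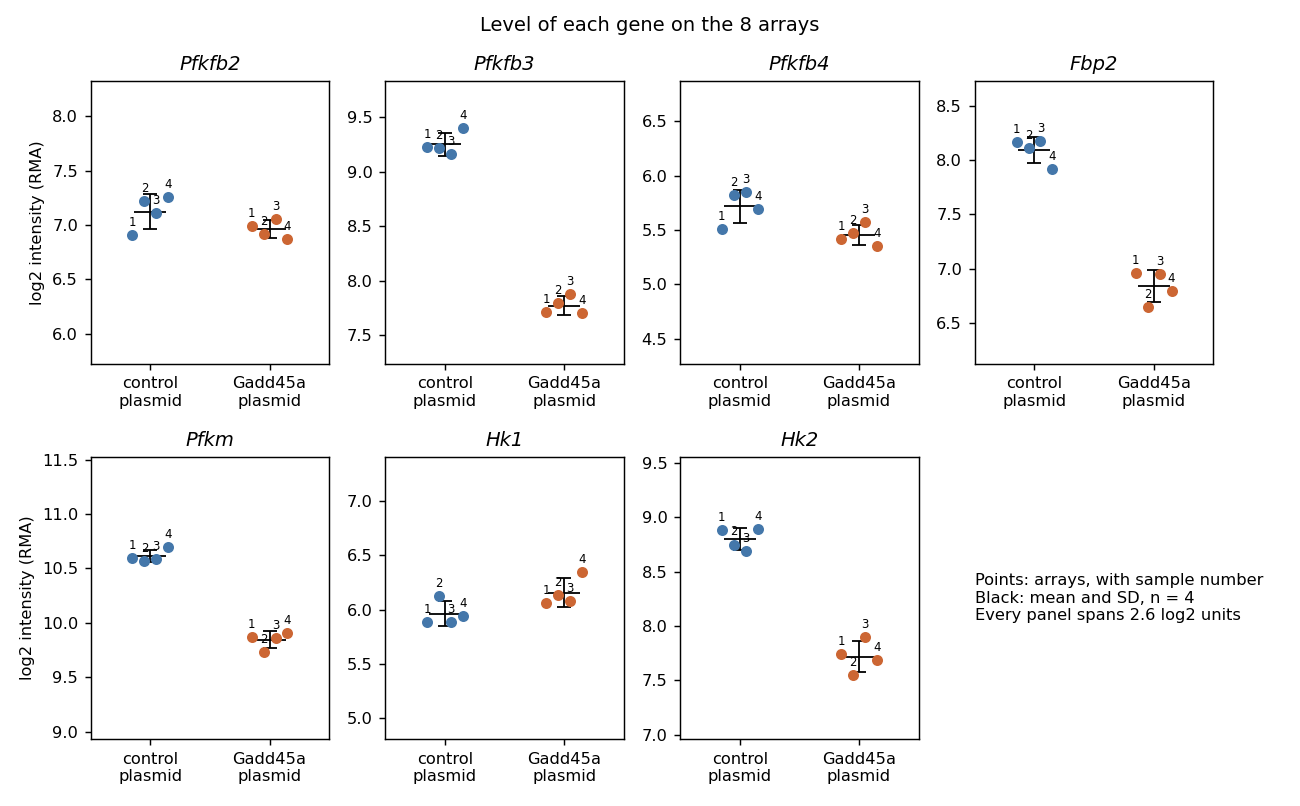
The log2 intensity of each of the 7 measured genes on the 4 control arrays (blue) and the 4 Gadd45a arrays (orange), with the sample number at each point and the mean and SD (n = 4) in black. Each panel spans 2.6 log2 units around its own centre. Pfkfb3, Fbp2, Pfkm and Hk2 are separated between the groups, and Pfkfb2, Pfkfb4 and Hk1 overlap.

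Pfkfb3, the family member with the strongest bias towards making the glycolytic activator, read 9.23, 9.22, 9.16 and 9.40 log2 units on control arrays 1 to 4 and 7.71, 7.79, 7.88 and 7.70 on Gadd45a arrays 1 to 4. The lowest control array lay 1.28 above the highest Gadd45a array. The means were 9.26 ± 0.10 and 7.77 ± 0.09 (SD, n = 4 each), a log2 fold change of -1.48 (SE 0.08, 95% interval -1.66 to -1.31), so the control signal was 2.80-fold that of Gadd45a muscles. It was the 9th most negative fold change of all 16755 probe sets. The intervals and ranks of Pfkfb3, Fbp2 and Hk2 are descriptions only and take no account of the choice of these genes on the same arrays. Its residual spread of 0.09 was small, with 22.3% of probe sets having a smaller one. In bulk muscle, fewer cells that make a transcript and less of it per cell cannot be told apart, here and below.

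Pfkfb2, the form best known from heart, read 6.91, 7.22, 7.11 and 7.26 on the control arrays and 6.99, 6.92, 7.06 and 6.87 on the Gadd45a arrays. The groups overlapped because control 1 lay below 3 of the Gadd45a arrays. The log2 fold change was -0.16 (SE 0.09, limma adjusted p = 0.216), and its 95% interval of -0.37 to 0.04 holds both no change and a modest decrease.

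Pfkfb4, the form best known from testis, was the dimmest of the 7 genes, with 40.9% of probe sets dimmer. It read 5.51, 5.82, 5.85 and 5.69 on the control arrays and 5.42, 5.47, 5.57 and 5.35 on the Gadd45a arrays. Again control 1 was the low control array and lay within the Gadd45a range. The log2 fold change was -0.27 (SE 0.09, limma adjusted p = 0.0661). Without control 1 it was -0.34 with adjusted p = 0.023. Without both arrays numbered 1 it was -0.33 with adjusted p = 0.0586.

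On the same arrays, the gap between Pfkfb3 and either measured relative was narrower with Gadd45a plasmid. The log2 value of Pfkfb3 minus that of Pfkfb2 lay between 2.00 and 2.32 on control arrays and between 0.72 and 0.87 on Gadd45a arrays, a shift of -1.32. For Pfkfb3 minus Pfkfb4 the control arrays ran from 3.32 to 3.72 and the Gadd45a arrays from 2.29 to 2.35, a shift of -1.22. The second difference was nearly constant across Gadd45a arrays, with an SD of 0.03 against 0.21 in controls. These differences show unequal change. They do not compare the amounts of different transcripts, and they were not tested, because Pfkfb3 was chosen with its decrease known.

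**Figure D2:**
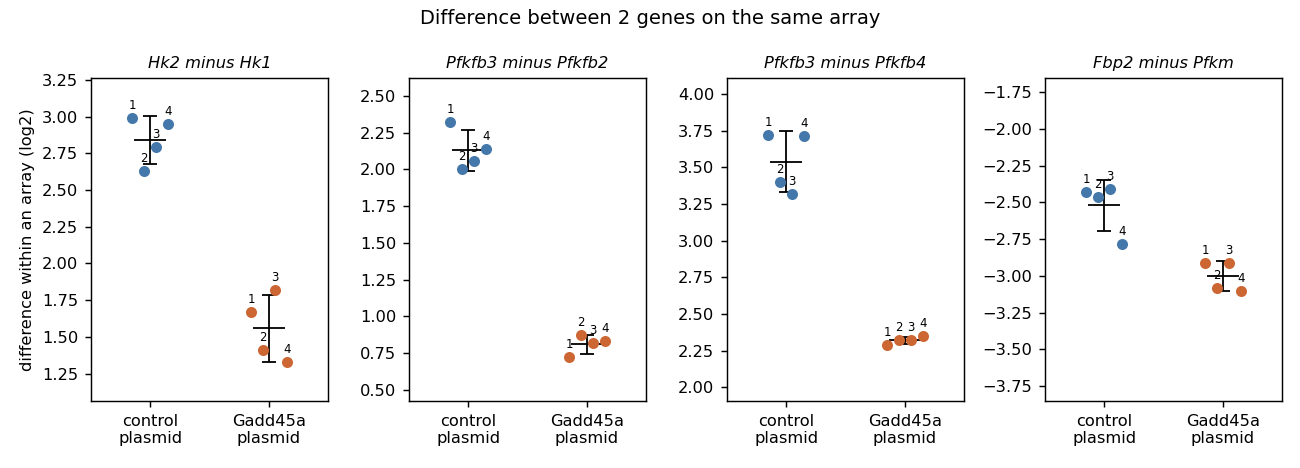
The log2 value of one gene minus that of another on the same array, for 4 pairs, with control arrays in blue, Gadd45a arrays in orange, sample numbers at the points and the mean and SD (n = 4) in black. Each panel spans 2.2 log2 units. In every pair all Gadd45a arrays lie below all control arrays, by the narrowest margin for Fbp2 minus Pfkm.

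Fbp2, the fructose bisphosphatase of muscle, read 8.17, 8.11, 8.18 and 7.92 on the control arrays and 6.96, 6.65, 6.95 and 6.80 on the Gadd45a arrays. All Gadd45a arrays lay at least 0.96 below all control arrays. The means were 8.09 ± 0.12 and 6.84 ± 0.15 (SD, n = 4 each), a log2 fold change of -1.25 (SE 0.09, 95% interval -1.46 to -1.04), or a 2.38-fold higher control signal. It ranked 18th among the decreases.

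Pfkm, the muscle subunit of phosphofructokinase that catalyses the opposite reaction, was the brightest of the 7 genes, with 99.1% of probe sets dimmer. It read 10.60, 10.57, 10.59 and 10.70 on the control arrays and 9.87, 9.73, 9.86 and 9.91 on the Gadd45a arrays. The groups were 0.66 apart at their nearest arrays. Pfkm fell from 10.61 ± 0.06 to 9.84 ± 0.08 (SD, n = 4 each), a log2 fold change of -0.77 (SE 0.07, 95% interval -0.93 to -0.62, limma adjusted p = 0.000123). This is a 1.71-fold higher signal in controls.

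Both enzymes of the opposing pair were thus lower, with the larger estimate for Fbp2. Fbp2 minus Pfkm lay between -2.78 and -2.41 on control arrays and between -3.10 and -2.91 on Gadd45a arrays, a shift of -0.48. This shift was not tested. Fbp2 was chosen with its decrease known, so nothing is read from its larger estimate. Control 4 held the lowest control difference, with both the lowest control reading of Fbp2 and the highest of Pfkm.

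Hk2 read 8.88, 8.75, 8.69 and 8.89 on the control arrays and 7.74, 7.55, 7.90 and 7.69 on the Gadd45a arrays. The groups were 0.79 apart at their nearest arrays. The means were 8.80 ± 0.10 and 7.72 ± 0.15 (SD, n = 4 each), a log2 fold change of -1.08 (SE 0.09, 95% interval -1.29 to -0.88), or a 2.12-fold higher control signal. Hk2 ranked 37th among the decreases.

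Hk1 was the gene of the set with a positive estimate. It read 5.89, 6.13, 5.89 and 5.94 on the control arrays and 6.06, 6.14, 6.08 and 6.35 on the Gadd45a arrays. Control 2 lay within the Gadd45a range, and Gadd45a 4 was the highest array. The log2 fold change was 0.20 (SE 0.09, 95% interval -0.003 to 0.40, limma adjusted p = 0.142). Hk2 minus Hk1 fell between 2.63 and 2.99 on control arrays and between 1.33 and 1.82 on Gadd45a arrays, a shift of -1.28 that was not tested.

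**Figure D3:**
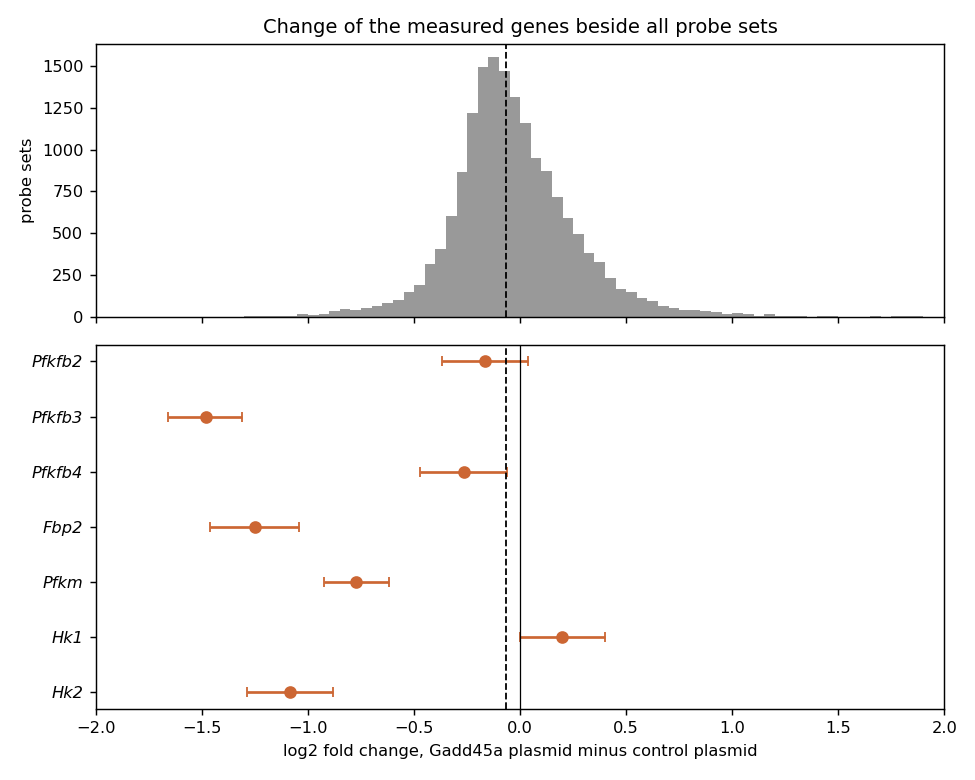
Upper panel, the log2 fold change (Gadd45a arrays minus control arrays) of all 16755 probe sets in bins of 0.05, apart from 11 beyond 2 log2 units. Lower panel, the fold change of the 7 measured genes with limma's 95% interval. The dashed line is the median of all probe sets, -0.06, and Pfkfb3, Fbp2, Hk2 and Pfkm lie far to its left. Of these, Pfkfb3, Fbp2 and Hk2 were chosen for their decreases.

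No array lay on one side of its group mean in all 7 genes. Gadd45a 3 lay above its group mean in 6 of the 7 genes, by 0.08 on average, and Gadd45a 2 below in 5, by -0.07 on average. Control 1 lay below its group mean in 5 genes, by -0.21 for both Pfkfb2 and Pfkfb4. These offsets are small beside the differences of Pfkfb3, Fbp2, Hk2 and Pfkm between the groups.

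Promoters are shown here as a description only. Pfkfb3, Fbp2 and Hk2 were chosen with their decreases known, so nothing is read from 4 genes being lower together. RefSeq promoters (build GRCm38.p6, 250 bases before to 50 after an annotated start) were found for all 8 genes, 18 in all. They were searched on both strands for CACGTG, the E-box bound by Myc, Usf and carbohydrate response factors, for ACGTG and GCGTG, the cores of hypoxia response elements, and for CAGCTG, an E-box of myogenic factors. CACGTG reads the same on both strands and holds ACGTG on each. Which start the muscle uses was not measured, and the submitters' processing notes name another build, mm9. Below, 5′ to 3′ on the gene's strand, capitals mark any of these motifs on either strand. The first 4 promoters are those that hold CACGTG, and Hk2 is shown as the lower gene without it.
Pfkfb3, chr2:11502041-11502340, minus strand: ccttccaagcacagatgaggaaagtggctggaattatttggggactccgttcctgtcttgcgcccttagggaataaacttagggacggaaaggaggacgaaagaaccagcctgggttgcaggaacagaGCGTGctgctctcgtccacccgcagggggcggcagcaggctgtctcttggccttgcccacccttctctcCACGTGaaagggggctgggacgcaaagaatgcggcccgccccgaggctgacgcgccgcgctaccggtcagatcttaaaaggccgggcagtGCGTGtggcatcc
Fbp2, chr13:62858351-62858650, minus strand: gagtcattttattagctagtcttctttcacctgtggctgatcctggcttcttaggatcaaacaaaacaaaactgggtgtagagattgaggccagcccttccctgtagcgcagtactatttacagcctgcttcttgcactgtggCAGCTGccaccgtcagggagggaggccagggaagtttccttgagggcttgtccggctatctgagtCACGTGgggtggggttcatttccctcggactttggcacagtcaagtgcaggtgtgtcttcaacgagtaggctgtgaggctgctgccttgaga
Pfkm, chr15:98092339-98092638, plus strand: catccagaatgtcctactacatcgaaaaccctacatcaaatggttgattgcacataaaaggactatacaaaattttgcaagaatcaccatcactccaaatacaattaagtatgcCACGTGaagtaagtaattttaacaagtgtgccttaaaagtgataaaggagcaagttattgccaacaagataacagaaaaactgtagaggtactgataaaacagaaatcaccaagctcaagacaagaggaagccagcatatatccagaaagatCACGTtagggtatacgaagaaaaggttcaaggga
Pfkfb2, chr1:130715772-130716071, minus strand: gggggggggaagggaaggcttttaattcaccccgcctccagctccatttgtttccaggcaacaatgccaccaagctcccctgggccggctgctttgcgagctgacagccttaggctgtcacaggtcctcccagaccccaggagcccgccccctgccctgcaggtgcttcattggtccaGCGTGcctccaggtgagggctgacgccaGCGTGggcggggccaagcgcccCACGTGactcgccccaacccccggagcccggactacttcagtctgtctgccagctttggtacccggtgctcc
Hk2, chr6:82774405-82774704, minus strand: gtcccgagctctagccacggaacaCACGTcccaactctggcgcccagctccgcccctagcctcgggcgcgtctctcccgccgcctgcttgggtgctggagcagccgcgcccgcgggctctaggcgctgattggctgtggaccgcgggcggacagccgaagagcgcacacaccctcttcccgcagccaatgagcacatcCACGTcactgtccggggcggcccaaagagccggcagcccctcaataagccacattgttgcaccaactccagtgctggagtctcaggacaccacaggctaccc

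CACGTG was found in promoters of Pfkfb3, Fbp2 and Pfkm, which were lower, and of Pfkfb2, which did not pass. It lies from -53 to -48 relative to the annotated start in Pfkfb3, from -42 to -37 in Fbp2, from -22 to -17 in Pfkfb2 and from -136 to -131 in Pfkm. The single Hk2 promoter holds ACGTG at 2 places and no CACGTG. The other Pfkfb3 promoter, the other promoters of Pfkfb2 and Pfkm, and those of Pfkfb1, Pfkfb4 and Hk1 hold no CACGTG. Of 32851 promoters of this length 7.15% hold CACGTG, 19.6% ACGTG, 32.4% GCGTG and 16.3% CAGCTG. Counted by gene, 8.09% of 27025 genes hold CACGTG in at least 1 promoter, as do 4 of the 8 genes described here. ACGTG lies in a promoter of 6 of the 8 (21.8% of all genes), GCGTG in 6 (35.2%) and CAGCTG in 3 (18.3%). Genes differ in their number of annotated promoters, and these shares were not tested. Fbp2 was the lower gene with a CAGCTG, and CAGCTG also lies in promoters of Pfkfb1 and Pfkfb2. These matches are letters in a window and say nothing of binding.

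Genes whose mean-centred profile over the 8 arrays lay closest to a member were ranked by root mean square distance in log2 units. This distance includes the difference between the groups, so it finds genes with a similar decrease. Closest to Pfkfb3 were the lipoprotein receptor gene Vldlr (0.132), the phosphodiesterase gene Gpcpd1 (0.149), Asb11, a ubiquitin ligase adaptor (0.177), and Smco1 (0.185). Closest to Hk2 were the phospholipase gene Plaat3 (0.0882), Adssl1, the muscle adenylosuccinate synthase (0.0884), the phosphorylase kinase subunit gene Phka1 (0.0908) and the chemokine gene Cxcl11 (0.0947). For Fbp2 they were Smco1 (0.0744), the phospholipase C gene Plcd4 (0.0880), the retinaldehyde dehydrogenase gene Aldh1a1 (0.0938) and Gpcpd1 (0.107). Smco1 and Gpcpd1 are on both the Pfkfb3 and Fbp2 lists.

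Among the remaining enzymes of glycolysis, 3 of 14 measured genes fell and 0 rose (6 and 0 at an unadjusted limma p under 0.05), with a median log2 fold change of -0.17. The share called is near the 21.1% called in either direction among all probe sets, so nothing is read from it for the list. Tigar, a phosphatase that degrades the same sugar bisphosphate the Pfkfb enzymes make, fell by 0.57 (SE 0.09, limma adjusted p = 0.00226). The muscle phosphoglycerate mutase gene Pgam2 fell by 0.40 (SE 0.07), and the aldolase gene Aldoa by 0.32 (SE 0.10, adjusted p = 0.0421, which no longer passed in 11 of the 12 fits with 1 array, or 2 arrays sharing a number, removed). The other phosphofructokinase genes Pfkl (-0.04) and Pfkp (-0.11) did not pass, nor did the liver bisphosphatase gene Fbp1 (-0.23) or the hexokinase-like Hkdc1 (-0.22). Gapdh, Pgk1, Eno1, Ldha and 5 further genes of the list had no single-symbol probe set and were not analysed. Pkm, an abundant muscle enzyme, read a dim 4.93 on control arrays, and whether this probe set reports it well was not tested.

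Of 10 genes of sugar and lactate transport 4 fell and 1 rose, with a median of -0.23. Of the 10 genes, 4 lay below the median brightness. Over all probe sets 21.1% passed in either direction, and 39.2% with those below the median brightness left out. Nothing is read from the count for the list. Among the glucose transporters, which act upstream of the hexokinases, Slc2a4 and Slc2a12 fell and Slc2a1, Slc2a3 (-0.08) and Slc2a8 (-0.16) did not pass. Slc2a4, the insulin-responsive glucose transporter, fell by 0.91 (SE 0.08, limma adjusted p = 0.000118), and its relative Slc2a12 by 0.63 (SE 0.08). On the lactate side, the exporter gene Slc16a3 fell by 0.63 (SE 0.07) and Bsg, which encodes a chaperone of these carriers, by 0.30 (SE 0.06, not passing without both arrays numbered 2). Slc16a7, another monocarboxylate transporter, rose by 0.56 (SE 0.13), a call lost without both arrays numbered 3 and without both numbered 4. Its probe set was dim, with means of 4.85 on control arrays and 5.41 on Gadd45a arrays, below the array medians. The widely made glucose transporter Slc2a1 read 6.26 ± 0.07 and 6.28 ± 0.10 (SD, n = 4 each) and did not pass.

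On the glycogen branch, which stores glucose phosphate and feeds it in past the hexokinases, 9 of 13 genes fell and 2 rose, with a median of -0.48. The 9 include genes of glycogen synthesis as well as of breakdown. None of the 13 lay below the median brightness. With probe sets below it left out, 39.2% of the remaining probe sets passed in either direction. The largest decreases were in Phka1 (-1.15) and Phkg1 (-1.06), subunits of phosphorylase kinase, then in Ppp1r3a (-0.98), the glycogen-targeting phosphatase subunit of muscle, and Pygm (-0.74), the muscle phosphorylase.

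Of 10 genes for kinases that phosphorylate Pfkfb enzymes, or for other subunits of those kinases, 3 were lower and 2 higher, with a median of 0.06. Of the 10 genes, 1 lay below the median brightness. Over all probe sets 21.1% passed in either direction, and 39.2% with those below the median brightness left out. Nothing is read from this count for the list. The AMPK subunit genes Prkab2 (-0.76), Prkaa2 (-0.63) and Prkag1 (-0.39) fell, while Prkaa1, the other catalytic AMPK subunit gene, rose by 0.25 (SE 0.06, limma adjusted p = 0.0206), which no longer passed in 6 of those 12 fits. The AMPK subunit genes Prkab1 (0.10), Prkag2 (-0.09) and Prkag3 (0.02) did not pass. The protein kinase A subunit gene Prkaca rose by 0.39 (SE 0.11, limma adjusted p = 0.0282), which no longer passed in 9 of those 12 fits, nor with the sample number as a block.

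Whether the factors below regulate the genes described here was not tested. Of 17 genes of the hypoxia-inducible factors and their targets, 3 fell and 1 rose (6 and 1 at an unadjusted limma p under 0.05), with a median of -0.19. That share is near the 21.1% called among all probe sets, so nothing is read from it for the list. The hypoxia factor gene Hif1a rose by 0.44 (SE 0.07, limma adjusted p = 0.00236). Its relative Epas1 fell by 0.71 (SE 0.09), the oxygen-sensing hydroxylase gene Egln1 by 1.03 (SE 0.09), and the target gene Vegfa by 0.36 (SE 0.07, a call lost without both arrays numbered 2). Of 10 genes of the carbohydrate response and Myc network 3 fell and 0 rose (5 and 1 at an unadjusted limma p under 0.05), with a median of -0.19. Beside the 21.1% of all probe sets, nothing is read from this count either. Txnip, an inhibitor of glucose uptake that is itself induced by glucose, fell by 0.82 (SE 0.08), and the carbohydrate response factor gene Mlxipl and the Myc antagonist gene Mxi1 each fell by 0.41.

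**Figure D4:**
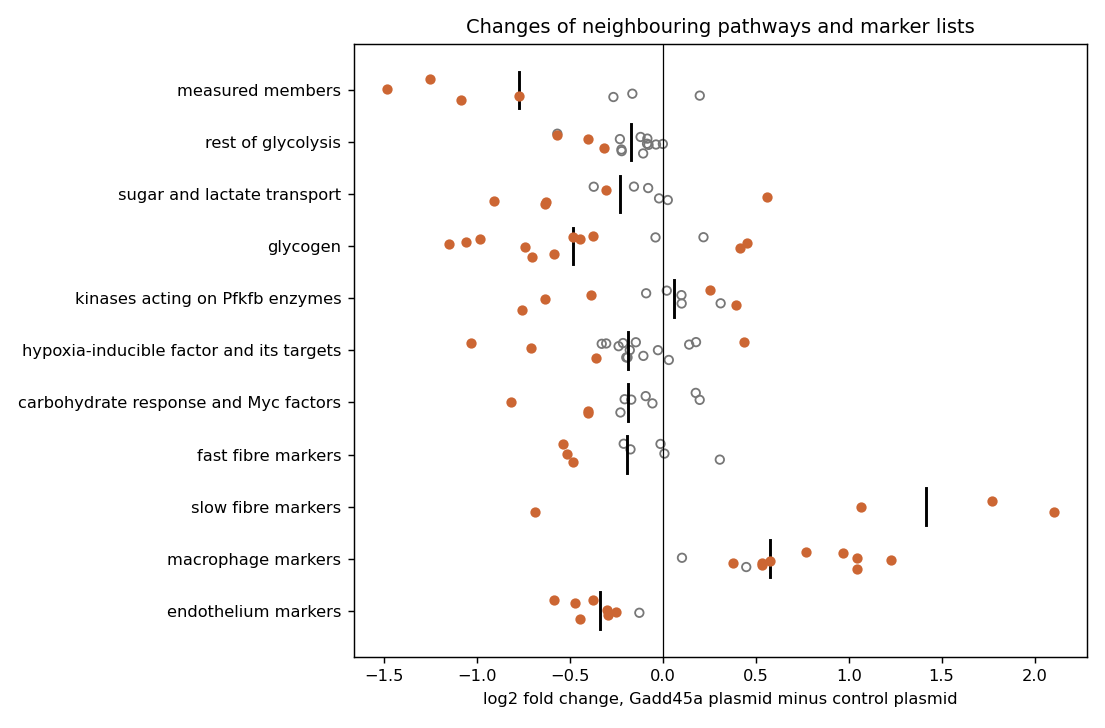
Each point is the log2 fold change (Gadd45a arrays minus control arrays) of 1 gene, for the members, the pathway lists and part of the marker lists. Filled points passed an adjusted p of 0.05, open points did not, and black bars are list medians. The median is -0.77 for the members, of which Pfkfb3, Fbp2 and Hk2 were chosen for their decreases, and -0.48 for the glycogen list.

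Markers of fibre types and of other cells were counted in the same muscles. Over all probe sets 21.1% passed in either direction, and 39.2% with probe sets below the median brightness left out. Of 11 macrophage markers 9 rose and 0 fell (10 and 0 at an unadjusted limma p under 0.05), and their summed level (log2 of summed intensities) ran from 11.16 to 11.28 on control arrays and from 11.81 to 12.10 on Gadd45a arrays. Of 8 fast-fibre markers 3 fell and 0 rose (5 and 0 unadjusted), with a median of -0.19 and a summed level from 14.64 to 14.79 and from 14.51 to 14.57. Of 4 slow-fibre markers 3 rose and Myl2 fell, the latter no longer passing in 8 of the 12 fits with arrays removed, with summed levels from 10.79 to 11.16 and from 11.62 to 11.77. Of 8 endothelial markers 7 fell, a count of 3 to 7 when arrays were left out, with summed levels from 10.19 to 10.35 and from 9.89 to 9.96. Fibroblast markers rose in 5 of 7 genes and satellite cell and myoblast markers in 2 of 8. Adipocyte markers fell in 4 of 6, erythroid markers in 2 of 2 and neutrophil markers in 2 of 9. Leaving out arrays gave 3 to 5, 2 to 3, 1 to 3, 0 to 2 and 0 to 7 in the same order. The counts of the fast-fibre, satellite cell and neutrophil lists are near the 39.2% or 21.1% above, so nothing is read from them. In the satellite cell and myoblast list, Myog (0.99) and Mymk (1.97) rose, while Pax7 (0.11) and Myf5 (0.15) did not pass. The macrophage surface receptor gene Adgre1 read 7.77 and the lysosomal gene Cd68 8.48 on control arrays, so the defining markers were well within the measured range in both groups. The part of these marker changes in the values of the hexokinase, phosphofructokinase and Pfkfb genes was not tested.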

How the data were processed

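The deposited values are log2 intensities after RMA, 1 per probe set and array, and GCOS, RMA and mm9 are named, without tool versions, per the submitters' processing notes. RMA evens out array brightness and compresses changes of dim and bright probe sets. The choice of deposited probe sets is not described in the labels. Of 16755 probe sets 14996 had 1 gene symbol, 1019 several and 740 none listed. Gene identifiers of 14941 matched a RefSeq table (GRCm38.p6), with 0 symbols changed. No coordinates of probe sets are given.

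Groups came from sample titles. Two-sided tests used lmFit and eBayes of limma 3.58.1, under R 4.3.3, fitted to all probe sets without a block, with Benjamini-Hochberg adjustment and a threshold of 0.05, and SE is limma's moderated standard error. Gene lists are described by counts and medians, with no set test. Named genes were all members and up to 4 passing genes per list with the largest change (2 where fewer than 2 passed). The 4 closest profiles to Pfkfb3, Hk2 and Fbp2 were also named, apart from numbered Gm, LOC, Rik, Olfr, Vmn, Mir and Snor symbols. List genes that did not pass were named after their values were seen, as were Prkaa1, Bsg, Slc2a1, Pkm, Myl2, Myog, Mymk, Adgre1, Cd68, Pvalb and Ckm. Members and lists were chosen with earlier results of these data known. Of 88 pathway symbols 74 were measured. In simulated data with 200 of 16755 probe sets changed, the fit recovered 68.7% of changes of 0.5 log2 units and 97% of changes of 1. Far more probe sets were called in the real data, so these rates may not hold there. Smaller changes, such as the estimates of Pfkfb2, Pfkfb4 and Hk1, were not simulated. Alternatives removed arrays, same-numbered pairs or dim probe sets, added a block for the sample number, rescaled the arrays (quantile, median, cyclic loess), changed the variance model (trend and robust, array weights), used 1 probe set or an average per gene, or set the threshold at 0.01.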

Additional observations from a re-analysis of the deposited data

How the results depend on the processing

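Over 22 alternatives, Pfkm kept its direction and passed the threshold in each, with log2 fold changes from -0.80 to -0.72 and a highest adjusted p of 0.00291. Those of Pfkfb3, Fbp2 and Hk2 ran from -1.55 to -1.41, from -1.31 to -1.18 and from -1.18 to -1.03, a description only, since these genes were chosen on the same arrays. Pfkfb2 and Hk1 passed in none of the 22, with lowest adjusted p of 0.0715 and 0.0867. Pfkfb4 passed without control 1 (adjusted p = 0.023) and with array weights (0.0347). The count of lower members, which includes those 3 chosen genes, was 4 to 5. With the sample number as a replicate block, the lower members remained 4 in number, and no member changed its call. Same-numbered arrays had correlated deviations of 0.05 to 0.10, and all 8 arrays correlated best with their own number, a hint from the data only. The block changed the number of kinase genes called higher from 2 to 1, and the threshold of 0.01 changed it to 0. Leaving out arrays gave 0 to 2 there, 0 to 1 transporter genes higher (against 1) and 2 to 4 hypoxia genes lower (against 3). Transporter genes called higher were 0 at the threshold of 0.01. They were also 0 without dim probe sets, where 6 of the 10 were tested. Slc16a7, the gene called higher, was left out there, so that 0 shows no lost call. Hypoxia genes called lower were 5 without dim probe sets and 5 with trend and robust variance. Over all probe sets 3542 were called, 1876 without both arrays numbered 2 and 1630 at the threshold of 0.01. No value of a named gene reversed. Averaging probe sets could not change the members, each with a single probe set. Brightness limits Pfkfb4 and Hk1 most, with 40.9% and 55.9% of probe sets dimmer.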
